A study of Mus musculus with 6 samples.

Results

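Active ADAR2 (ADAR2_WT) was set against an enzymatically dead form (ADAR2_E396A) in mouse Th17 cells, 2 libraries each, so that 4 of the 6 libraries of the series were compared. The 4 were chosen by the construct named in the deposited table that holds them. The other 2 libraries, from cells given the MSCV empty vector, stand beside the comparison as the level without a construct. They also entered the fit, where they add to the estimates of the spread and of the culture-set effect. Every SE, p and call of the comparison therefore rests on them too, unless a fit on the 4 construct libraries alone is named. MSCV is a murine stem cell virus retrovirus.

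Naive CD4+ T cells of 2 wildtype mice, 8 to 12 weeks old, were stimulated with plate-bound anti-CD3ε (0.25 µg/mL) and anti-CD28 (1 µg/mL) in 0.1 ng/mL TGF-β and 20 ng/mL IL-6. Retrovirus was added at 24 h, and the cells then spent 48 h in 0.3 ng/mL TGF-β and 20 ng/mL IL-6. RNA was taken at 72 h. All 3 groups share this culture and the viral infection. Each mouse gave a culture set of 3 libraries, called set A and set B here, so n = 2 per group and a replicate is a donor mouse. Whether transduced cells were sorted, and from which species the ADAR2 coding sequence came, is not given in the sources used here.

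ADAR2 converts adenosines of RNA duplexes to inosine, and ribosomes and polymerases read inosine as guanosine. The reaction takes place at a zinc ion in the deaminase domain, where a glutamate shuttles protons. Exchanging that glutamate for alanine removes the activity, while the separate domains that bind double-stranded RNA are left in place. Th17 cells are helper T cells that make IL-17 family cytokines.

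The glutamate lies in a His-Ala-Glu motif. Translation of the 3 protein-coding mouse Adarb1 transcripts of the GENCODE annotation gave a single such motif in each, and the number of its glutamate codon, a GAG, is the one in the label E396A. The codon is at chr10:77313464-77313466 (mm10, minus strand), within coding exon sequence, in exon 6 of 11 of the 701-codon transcript. The reference sequence around it, chr10:77313434-77313496, is shown 5′ to 3′ because it is the site where the constructs differ by name. Capitals mark the codon that the label E396A replaces.

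Adarb1 catalytic codon: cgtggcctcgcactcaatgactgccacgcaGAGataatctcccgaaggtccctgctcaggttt

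Normalized counts below are reads scaled to a common depth over the 6 libraries. A difference is ADAR2 WT minus ADAR2 E396A in log2 of normalized count plus 1, taken as the mean of both sets with its standard error (SE) from limma's moderated fit. A gene passed when its p, adjusted over all 14958 genes tested, was under 0.05. Reads per library ran from 16496328 to 21897166, both ends being construct libraries of set B (ADAR2 WT and ADAR2 E396A). Only transcript abundance was measured, not editing. All 14 markers of CD4 T and Th17 cells were measured, with summed counts of 68080 to 115300 per library. Summed counts of the marker lists of myeloid, gamma-delta T and erythroid cells lay between 8.33 and 103.7. The B cell list summed to 938 to 1436, mostly Ebf1 and Ighm, while its defining marker Ms4a1 had no read in any library. Its members Cd79a and Cd79b were at 6.8 to 39.4 and at 15.8 to 24.3. The fibroblast and stromal list summed to 138400 to 147000, nearly all of it Vim, which T cells also express. Within it the extracellular matrix gene Lum reached 649.6, and the collagen genes Col1a1 and Col1a2 at most 8.74 and 0.971. The muscle myosin gene Myh11 was at 146 and 181 with the active enzyme and 42.4 and 95.9 with the dead one (difference 1.33, SE 0.25, limma adjusted p = 0.113). CD8 T and NK cell markers are given with the killer receptors below. The part of such cells in the results was not tested.

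Adarb1 counts were above the empty vector with both constructs. They were higher with the active than with the dead form in both sets, a difference that did not pass. Adarb1, the ADAR2 gene (ENSMUSG00000020262.15, chr10:77290726-77418270), was at 18422 and 18999 normalized counts in the ADAR2 WT libraries of sets A and B, against 15644 and 14919.9 in those of ADAR2 E396A. The empty-vector libraries had 3672 and 3333. The ADAR2 WT libraries were above both ADAR2 E396A libraries, and the difference was 0.24 in set A and 0.35 in set B (mean 0.29, SE 0.07, limma adjusted p = 0.161). Beside every result below, therefore, stands a difference in Adarb1 counts of the same direction in both sets, and its part was not tested. Reads of the viral insert and of the endogenous gene cannot be told apart. Adar, which encodes the related deaminase ADAR1, was at 2637 and 3224 with the active and 2329.9 and 2852 with the dead enzyme (difference 0.18, SE 0.06, limma adjusted p = 0.318), with a like difference of 0.18 within each set. Of the 4 tested members of the ADAR family list, none passed by limma, by edgeR or by DESeq2, and 2 had an unadjusted p under 0.05 (12.4% of all genes tested). A limma fit on the 4 construct libraries alone, which called 194 genes in all, called Adarb1 higher.

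The comparison asks which transcripts depend on the catalytic residue. Of all genes tested, 32.9% were higher and 29.6% lower with ADAR2 WT in both sets, shares to be read beside the list counts below. By limma 10 of 14958 genes passed (0.0669%), 2 higher (0.0134%) and 8 lower (0.0535%) with the active enzyme, and 1853 had an unadjusted p under 0.05 (12.4%). The 8 that fell were genes of surface receptors, membrane proteins and a Golgi enzyme: Cd93, Bst1, B4galnt4, Klrc1, Ifitm1, Nkg7, Mctp2 and Ly6c1. The 2 that rose were the cytokine gene Il9 and Gm7860, a processed pseudogene. All 10 also passed for ADAR2 WT against the empty vector, where 122 of 14958 genes did (0.816%). None of the 10 passed for ADAR2 E396A against the empty vector by limma, where 2 genes did (0.0134%). Their differences there lay between -0.36 and 0.53, and the smallest unadjusted p was 0.00467. These comparisons share the empty-vector libraries and the construct libraries, so they are not independent of the contrast of WT with E396A.

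**Figure D1:**
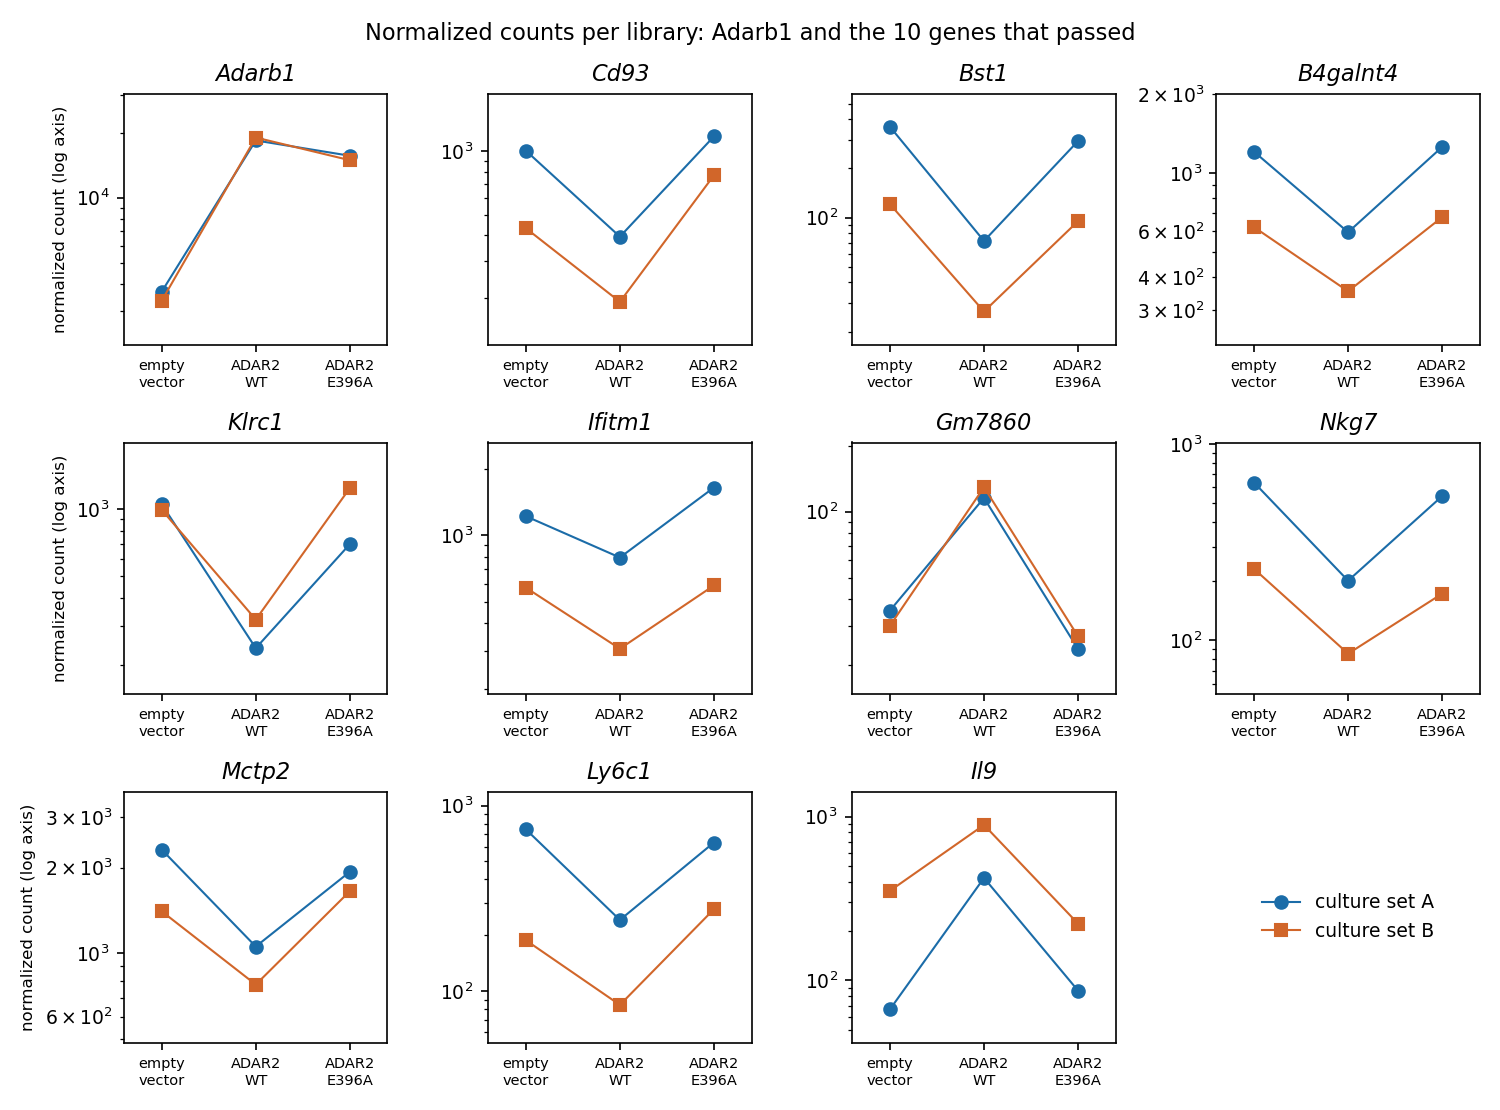
Normalized counts (log axis) of Adarb1 and the 10 genes that passed in each of the 6 libraries, grouped by construct on the x axis, with a line joining the libraries of culture set A (circles) and of set B (squares). For the 8 genes that fell, the ADAR2 WT library is the lowest of its set in both sets, and for Gm7860 and Il9 it is the highest.

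Cd93 (ENSMUSG00000027435.8, chr2:148436640-148443563) encodes a C-type lectin-like surface glycoprotein best known from endothelium and early B cells. Its normalized counts were 393 and 193 with the active enzyme (sets A and B), 1178 and 769.7 with the dead enzyme, and 1008 and 431 with the empty vector. Both ADAR2 WT libraries lay below all others. The difference was -1.58 in set A and -1.99 in set B, a 3.45-fold lower level over both (-1.79, SE 0.14, limma adjusted p = 0.0116). The tested protein-coding gene nearest to it, 28452 bases away, is Thbd, which encodes thrombomodulin, a cofactor of protein C activation with a similar lectin-like domain. Thbd was at 120.4 and 53.1 with the active and 269 and 239 with the dead enzyme, groups that did not overlap. Its difference of -1.65 (SE 0.23) did not pass (limma adjusted p = 0.0678). The neighbour on the other side, Nxt1, had a difference of 0.14.

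Bst1 (ENSMUSG00000029082.17, chr5:43818885-43843986) encodes CD157, a surface enzyme of NAD metabolism related to CD38. With ADAR2 WT it was at 71.8 and 26.5 normalized counts, with ADAR2 E396A at 295 and 95.0. The empty-vector libraries were at 360.3 and 121, so the level in set A was higher than in set B under every construct, and the groups still did not overlap. Bst1 was 3.76-fold lower with the active enzyme (difference -1.91, SE 0.16, limma adjusted p = 0.0116), by -2.02 in set A and -1.80 in set B. The gene overlaps Fbxl5 on the opposite strand by 2754 bases. Fbxl5, an iron-sensing ubiquitin ligase subunit, had a difference of -0.43 (SE 0.11, limma adjusted p = 0.205), and since the strand setting of the counting is not given in the sources used here, reads of the shared stretch cannot be told apart. Its relative Cd38, 24567 bases away, had a difference of -0.50 (SE 0.34).

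B4galnt4 (ENSMUSG00000055629.5, chr7:141061104-141072400) encodes a Golgi transferase that adds N-acetylgalactosamine to glycan chains. Its counts were 593 and 353 with ADAR2 WT, 1255 and 677 with ADAR2 E396A, and 1204 and 620.3 with the empty vector. Both ADAR2 WT libraries were below the other 4. It fell 2.01-fold (difference -1.01, SE 0.09, limma adjusted p = 0.012), by -1.08 in set A and -0.94 in set B. Of 13 tested members of a list of glycosyltransferases of gangliosides and sialylation, to which Bst1 had also been assigned, those 2 fell and none rose by limma, with a median difference of 0.11 (0.12 in set A, -0.11 in set B) against 0.0044 over all genes tested. St8sia4, which makes polysialic acid, had a difference of 0.45 (SE 0.11, limma adjusted p = 0.181), which DESeq2 called higher, and St8sia6, a sialyltransferase gene, 1.14 (SE 0.30, limma adjusted p = 0.201).

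Klrc1 (ENSMUSG00000030167.15, chr6:129666015-129678973) encodes NKG2A, an inhibitory receptor of NK and cytotoxic T cells that pairs with CD94. Its normalized counts were 239 and 321 with the active and 697 and 1243 with the dead enzyme. With the empty vector it was at 1052 and 993, so the ADAR2 WT libraries were below all 4 others. The fall was 3.36-fold (difference -1.75, SE 0.18, limma adjusted p = 0.0268), -1.54 in set A and -1.95 in set B. Klrc2, which lies 5326 bases away and has 98.9% identity to the Klrc1 transcript over 1163 aligned bases, could take up some of its reads.

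Klrc1 was the 1 gene that passed among 6 tested of 19 killer cell lectin-like receptor genes, and all 6 were lower with ADAR2 WT in both sets (29.6% of all genes tested were) with groups that did not overlap (17.3% of all genes). Klrd1, which encodes CD94, was at 18.4 and 34.6 with the active and 104 and 109 with the dead enzyme (difference -2.03, SE 0.33, limma adjusted p = 0.079). Klrk1, the activating receptor NKG2D, was at 76.7 and 108 against 232 and 197 (difference -1.22, SE 0.23, limma adjusted p = 0.112). Klri2, Klrc2 and Klre1 were at 3.46 to 20.8 normalized counts in the ADAR2 WT libraries and at 14.8 to 48.8 in the ADAR2 E396A libraries. The list had a median difference of -1.70. The other 13 members were too low to be tested, 2 of them without a read in any library. DESeq2 called Klrc1, Klrd1 and Klrk1 lower, and edgeR with TMM factors the first 2 of these. The 6 genes lie together on chromosome 6, between 129577905 and 129740484, and were chosen as a list with earlier results of these data known.

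Other markers of CD8 T and NK cells were set beside these genes. Of 10 such markers 7 were tested, 4 of which are the receptor genes Klrc1, Klrd1, Klrk1 and Klre1. The summed count of the list, these 4 included, was 535 and 661 with ADAR2 WT, 1250 and 1756 with ADAR2 E396A, and 1732 and 1535 with the empty vector. Klrc1 alone made up 239 and 321, 697 and 1243, and 1052 and 993 of these sums. The sum therefore largely repeats the receptor genes above and says little of the other markers. Ncr1 had no read in any library, and Klrb1c, the NK1.1 antigen gene, had 1.97 in the ADAR2 E396A library of set A and none elsewhere. Cd8a was at 16.5 and 19.6 with the active and 23.6 and 36.6 with the dead enzyme (difference -0.68, SE 0.55). Cd8b1 was at 158 and 142 against 132 and 112 (difference 0.30, SE 0.15), with ADAR2 WT higher in both sets. In bulk RNA, fewer cells of a type and less RNA of these genes per cell cannot be told apart.

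Nkg7 (ENSMUSG00000004612.9, chr7:43437073-43438249) encodes a membrane protein of cytotoxic granules. Nkg7 had 201 and 85.4 normalized counts with the active and 542 and 173 with the dead enzyme. The groups overlapped, since set A was above set B throughout (635 and 231 with the empty vector), but within each set ADAR2 WT was lowest. Nkg7 fell 2.32-fold (difference -1.22, SE 0.14, limma adjusted p = 0.0269), by -1.43 in set A and -1.01 in set B. It was the 1 gene that passed of 14 tested members of a list of cytotoxic effectors and chemokines. Ctsw, a protease gene of killer lymphocytes, was at 292 and 126 against 495 and 244 (difference -0.85, SE 0.12, limma adjusted p = 0.0708). Prf1, the pore-forming perforin gene, was at 63.1 and 70.4 against 343 and 146 (difference -1.73, SE 0.32, limma adjusted p = 0.112). DESeq2 and edgeR with TMM factors called Nkg7, Ctsw and Prf1 lower.

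The cytotoxic list as a whole did not run evenly through the sets. Its median difference was -0.82 in set A and -0.10 in set B (-0.38 over both), with 7 of 14 members lower in both sets and 3 higher in both. Granzyme A, Gzma, was at 501 with ADAR2 WT and 2008 with ADAR2 E396A in set A, and at 95.8 and 27.0 in set B, so that its differences had opposite signs (-2.0 and 1.79). Granzyme B, Gzmb, was at 2693 and 8605 in set A and at 1772 and 2147 in set B. In both genes the ADAR2 E396A library of set A was the highest of the 6.

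Ifitm1 (ENSMUSG00000025491.14, chr7:140967221-140969825) encodes a small interferon-induced membrane protein of a family that hinders virus entry. Ifitm1 had 792 and 306 normalized counts with the active and 1645 and 592 with the dead enzyme, with 1219 and 578 in the empty-vector libraries. Set A was above set B in each group, so the groups overlapped. Within the sets the difference was -1.05 and -0.95 (mean -1.0, SE 0.11, limma adjusted p = 0.0269). Ifitm2, 11234 bases away, was at 1189 and 791 against 1496 and 1001 (difference -0.33, SE 0.07, limma adjusted p = 0.161), with the empty-vector libraries at 1239 and 818. Ifitm3, on the other side, was at 649.5 and 490.3 against 717 and 497 (difference -0.08, SE 0.11). The 5 tested Ifitm genes had a median of -0.08. For all 5 the ADAR2 E396A library of set A was the highest of the 6 libraries (14.5% of all genes tested).

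Ly6c1 (ENSMUSG00000079018.10, chr15:75044018-75048830) encodes a GPI-anchored surface antigen that is commonly used to mark effector and memory T cells. Its counts were 242 and 84.2 with ADAR2 WT, 632 and 276 with ADAR2 E396A, and 745 and 188 with the empty vector. The construct groups did not overlap. The level was 2.91-fold lower with the active enzyme (difference -1.54, SE 0.18, limma adjusted p = 0.0269). Its near copy Ly6c2, 97.6% identical over 822 bases, was at 3.46 to 12.8 in the construct libraries. Ly6a, the Sca-1 antigen gene 45987 bases away, was at 9715 and 7999 against 11735 and 10097 (difference -0.30, SE 0.06, limma adjusted p = 0.123).

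Of 19 tested genes of a list of naive, memory and Ly6 surface genes, Ly6c1 alone passed by limma, while 11 were lower in both sets and 1 was higher. The median difference was -0.23. Il7r, the interleukin 7 receptor gene, was at 2708 and 2856 with the active and 4139 and 4259 with the dead enzyme, with nearly the same difference in set A (-0.61) as in set B (-0.58). It did not pass (mean -0.59, SE 0.11, limma adjusted p = 0.105), though DESeq2 called it and Ly6a lower.

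Mctp2 (ENSMUSG00000032776.9, chr7:72077830-72306608) encodes a calcium-binding protein with C2 domains that is anchored in internal membranes. Mctp2 had 1057 and 778 normalized counts with ADAR2 WT, 1934 and 1654 with ADAR2 E396A, and 2312 and 1405 with the empty vector. Both ADAR2 WT libraries were the lowest. Mctp2 fell 1.97-fold (difference -0.98, SE 0.11, limma adjusted p = 0.0269), by -0.87 in set A and -1.09 in set B. The tested protein-coding genes nearest to it are Chd2, 1120030 bases away, and Arrdc4, 3328589 bases away on the other side, with differences of -0.10 and -0.29.

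Il9 (ENSMUSG00000021538.3, chr13:56479277-56482246) encodes interleukin 9, a cytokine of Th9, Th2 and some Th17 cells. In set A it had 422 normalized counts with ADAR2 WT and 86.7 with ADAR2 E396A, and in set B 889.5 and 222. The empty-vector libraries had 66.7 and 353. Il9 rose 4.39-fold with the active enzyme (difference 2.13, SE 0.27, limma adjusted p = 0.0481), by 2.27 in set A and 2.0 in set B. Set B was the higher set in every group, and the groups did not overlap.

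Il9 was the 1 gene that passed among 16 tested genes of a Th2 and Th9 list, of which 10 were higher in both sets (32.9% of all genes tested were) and 0 lower. For the other members a single library weighs heavily: the ADAR2 E396A library of set B was the lowest of all 6 for 9 of the 16 genes, where it was the lowest for 15.6% of all genes tested. Gata3, the master regulator of Th2 cells, was at 4075 and 3409 with ADAR2 WT and ADAR2 E396A in set A, and at 2882 and 683 in set B. Il13, a Th2 cytokine gene, was at 2634 and 1768 in set A and at 1968 and 253 in set B. Ccr8, a chemokine receptor gene, had 1134 and 903, and then 795 and 162. Their differences were 0.26, 0.57 and 0.33 in set A and 2.07, 2.96 and 2.29 in set B, and none passed. The median of the list was 0.11 in set A and 0.73 in set B. Il9 itself stayed past the threshold when that library was left out, in a fit with 1 ADAR2 E396A library that called 217 genes, and lost its call without either ADAR2 WT library.

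Gm7860 (ENSMUSG00000082535.1, chr16:91539182-91540060) is annotated as a processed pseudogene. Gm7860 had 116 and 129 normalized counts with ADAR2 WT, 23.6 and 27.0 with ADAR2 E396A, and 35.4 and 30.2 with the empty vector. The sets agree closely, with differences of 2.24 and 2.22 (mean 2.23, SE 0.24, limma adjusted p = 0.0269), a 4.69-fold higher level. Its transcript is 92.6% identical to that of Rps2, a ribosomal protein gene, and 42 genes matched it at 90% identity or more over at least 50% of its length. Rps2 was at 23522 and 20421 with the active and 24366 and 20345 with the dead enzyme (difference -0.02, SE 0.06). Which gene the reads counted for Gm7860 came from is uncertain.

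**Figure D2:**
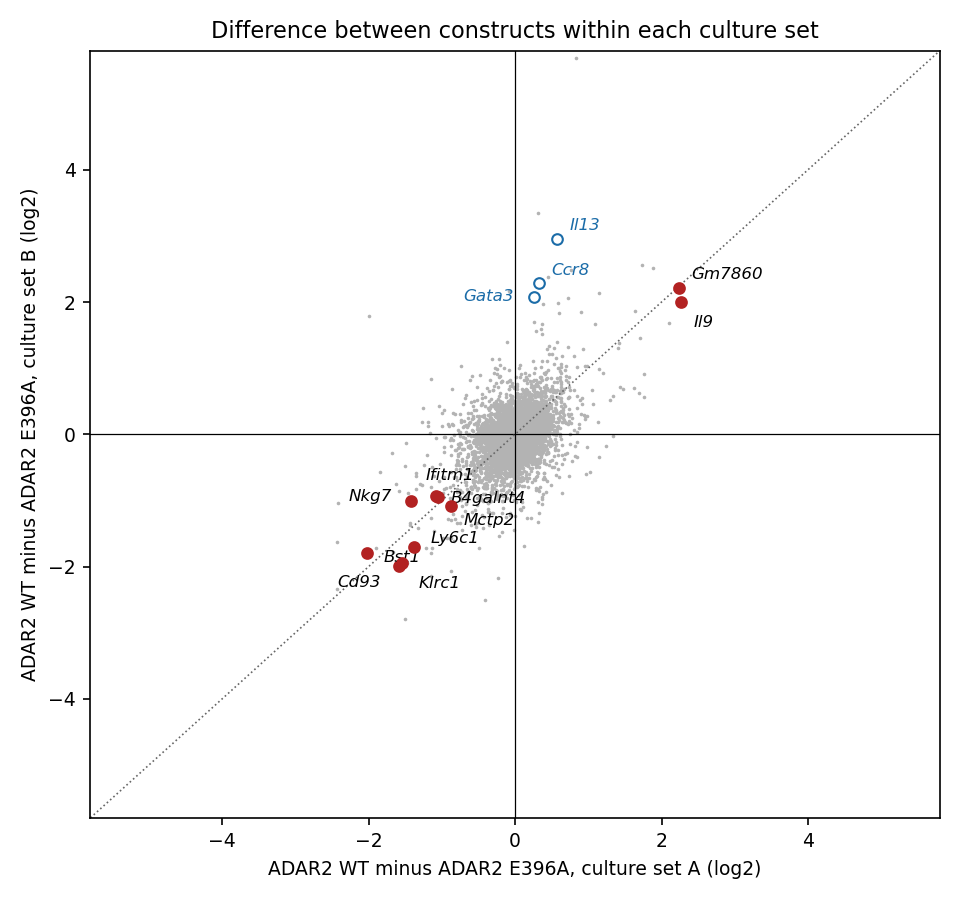
Difference between ADAR2 WT and ADAR2 E396A (log2) within culture set A (x axis) and within set B (y axis) for 10770 genes whose mean was 50 normalized counts or more (grey points). Filled red points are the 10 genes that passed, which lie near the dotted line of equal differences, and open blue points are Gata3, Il13 and Ccr8, which lie far above it. A gene whose sets differ less has a smaller SE in the fit. Nearness to the line is thus in part a result of passing, not separate evidence.

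The within-set differences share no library, so they can be set against each other. Across 10770 genes whose mean was 50 normalized counts or more, the differences of set A and set B correlated with Pearson r = 0.47 and Spearman rho = 0.408, a description across genes, which are not independent replicates and share the annotation and the scaling. The sign was the same in both sets for 65.4% of these genes. The spread of the differences was wider in set B (SD 0.31) than in set A (SD 0.251). The construct groups did not overlap for 8 of the 10 genes that passed, and over all genes tested they did not overlap for 19.4% with ADAR2 WT higher and for 17.3% with it lower.

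Between an adjusted p of 0.05 and 0.1 limma placed 21 genes with ADAR2 WT higher and 25 with it lower. Among genes below the threshold, 20 were taken for description, with a mean of 50 or more, a log2 difference of 0.58 or more in size, 1 sign in both sets, and at most 15 per direction together with the genes that passed. This left 13 higher and 7 lower, whose balance the limit per direction sets, with limma adjusted p between 0.0622 and 0.105. None of these passed. On the higher side, Armcx4, an armadillo repeat protein gene, was at 1566 and 1404 with the active and 964 and 688 with the dead enzyme (difference 0.86, SE 0.11, limma adjusted p = 0.0622). Mmp10, a secreted matrix metalloproteinase gene, was at 451 and 543 against 138 and 198 (difference 1.58, SE 0.24). Egfr, the epidermal growth factor receptor gene, was at 195 and 319.6 against 87.7 and 160.4 (difference 1.07, SE 0.15). For each of the 3 both ADAR2 WT libraries were above both ADAR2 E396A libraries. Tnfsf8, the CD30 ligand gene, had 4108 and 5698 against 2673 and 3636 (difference 0.63, SE 0.10). Fgf2, a fibroblast growth factor gene, had a difference of 0.77 (1.07 in set A, 0.46 in set B), and Palld, an actin-binding protein gene, one of 1.38. Also on this side were Cd226, an activating adhesion receptor gene (0.61), Ifi211, an interferon-inducible gene (0.72), Cmpk2, Cptp, a ceramide-1-phosphate carrier gene (0.78), Pde1a, a cyclic nucleotide phosphodiesterase gene (0.69), Sowahc (0.63) and mt-Nd2.

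On the lower side stood Thbd and Ctsw, given above. Slc15a1, a peptide transporter gene, was at 36.9 and 41.5 with the active and 101 and 107 with the dead enzyme (difference -1.39, SE 0.19, limma adjusted p = 0.0678), with the empty-vector libraries at 92.7 and 100.3. Glrx, the glutaredoxin gene of thiol redox control, was at 334 and 265 against 615 and 559 (difference -0.97, SE 0.15). The remaining 3 were Lzts1, a leucine zipper tumour suppressor gene (-1.08), Kctd11, an adaptor of cullin ligases (-0.72), and Tspoap1 (-1.09). The ADAR2 WT libraries were below both ADAR2 E396A libraries for each of these 7 genes except Ctsw, where 292 in set A exceeded 244 in set B.

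**Figure D3:**
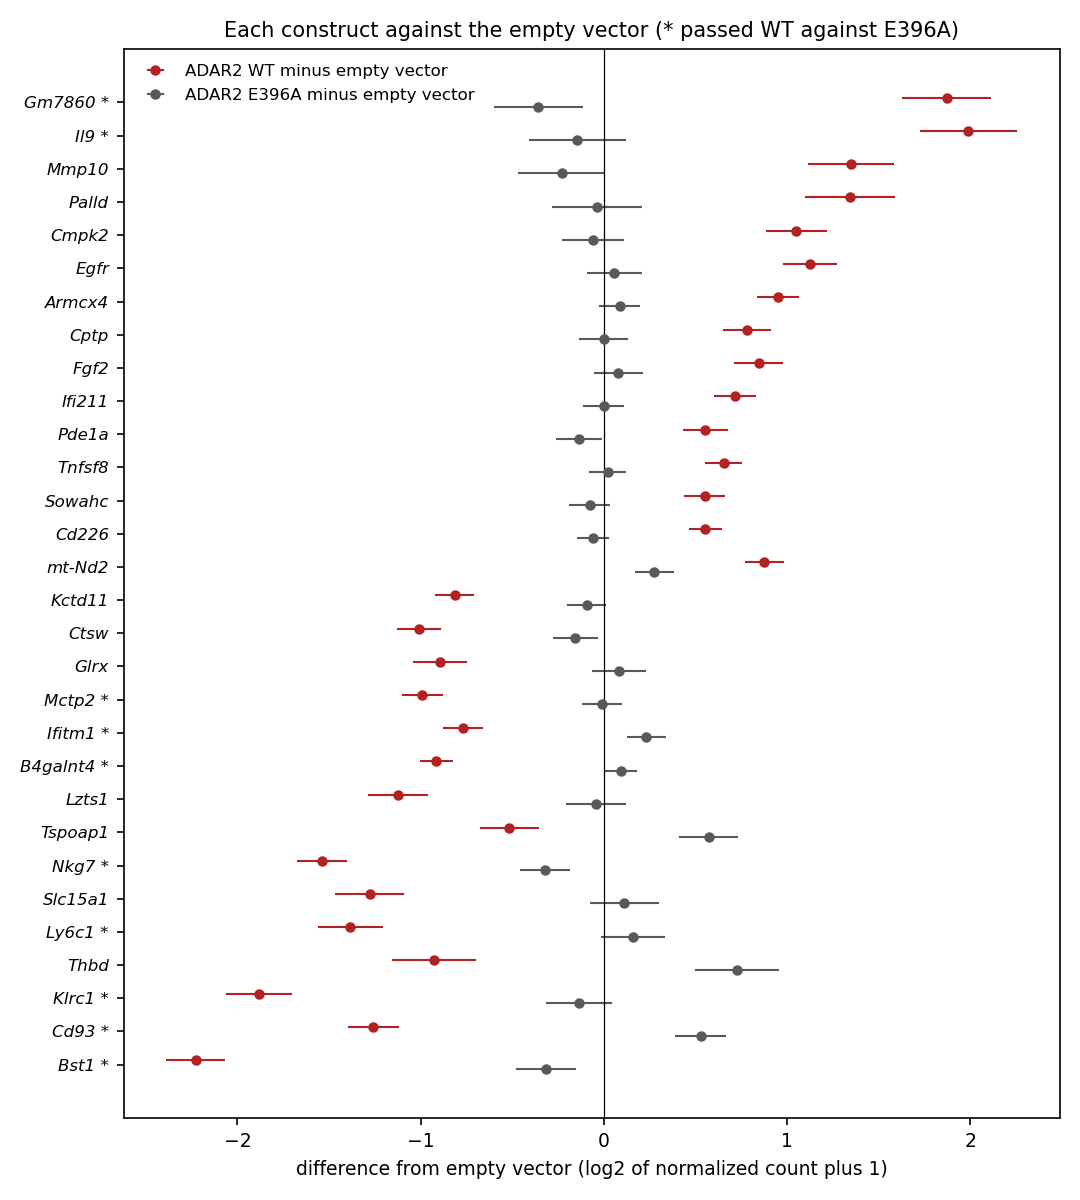
Difference of each construct from the empty vector (log2 of normalized count plus 1, bars are the SE of the fit) for the 10 genes that passed ADAR2 WT against ADAR2 E396A (asterisks) and 20 genes below the threshold taken by size of difference and p. The ADAR2 E396A points of the 10 genes lie between -0.36 and 0.53, nearer to 0 than their ADAR2 WT points.

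Set beside the empty vector, Thbd and Tspoap1 had positive differences with the dead enzyme and negative ones with the active enzyme. Thbd was at 210.4 and 111 with the empty vector, below the 269 and 239 of ADAR2 E396A and above the 120.4 and 53.1 of ADAR2 WT (differences from the empty vector of 0.73 and -0.93). Tspoap1 was at 136 and 113 with ADAR2 WT, 215 and 147 with the empty vector, and 349 and 200.5 with ADAR2 E396A. Neither gene passed against the empty vector with either construct.

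Interferon-stimulated genes, the antiviral genes switched on by type I interferon, had small positive differences. None of 50 tested of 53 passed by limma. An unadjusted p under 0.05 was reached by 24 with ADAR2 WT higher (6.43% of all genes tested were) and by 2 with it lower (5.96% of all genes), and 38 were higher in both sets and 4 lower. The median difference was 0.24 (0.20 in set A, 0.32 in set B), against 0.0044 over all genes tested. DESeq2 and edgeR with TMM factors called Cmpk2 alone, and edgeR with median-of-ratios factors called none.

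Cmpk2, a mitochondrial nucleotide kinase gene induced by interferon, was at 139.8 and 272 normalized counts with the active and 72.9 and 111 with the dead enzyme (difference 1.11, SE 0.17, limma adjusted p = 0.0747). Isg15, the ubiquitin-like modifier gene, was at 158 and 443 against 102 and 211 (difference 0.84, SE 0.16, limma adjusted p = 0.112). Mx1, a dynamin-like antiviral GTPase gene, was at 75.7 and 220.4 against 45.3 and 88.0 (difference 1.02, SE 0.22, limma adjusted p = 0.161). Set B was the higher set for these genes, so only Cmpk2 had both ADAR2 WT libraries above both ADAR2 E396A libraries. The ADAR2 WT library of set B was the highest of the 6 for 45 of the 50 genes (18.5% of all genes tested). Rsad2, the viperin gene, shows the unevenness between sets, with 38.8 against 29.6 in set A and 126 against 31.4 in set B. Parp12 was more even, with differences of 0.70 and 0.89.

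**Figure D4:**
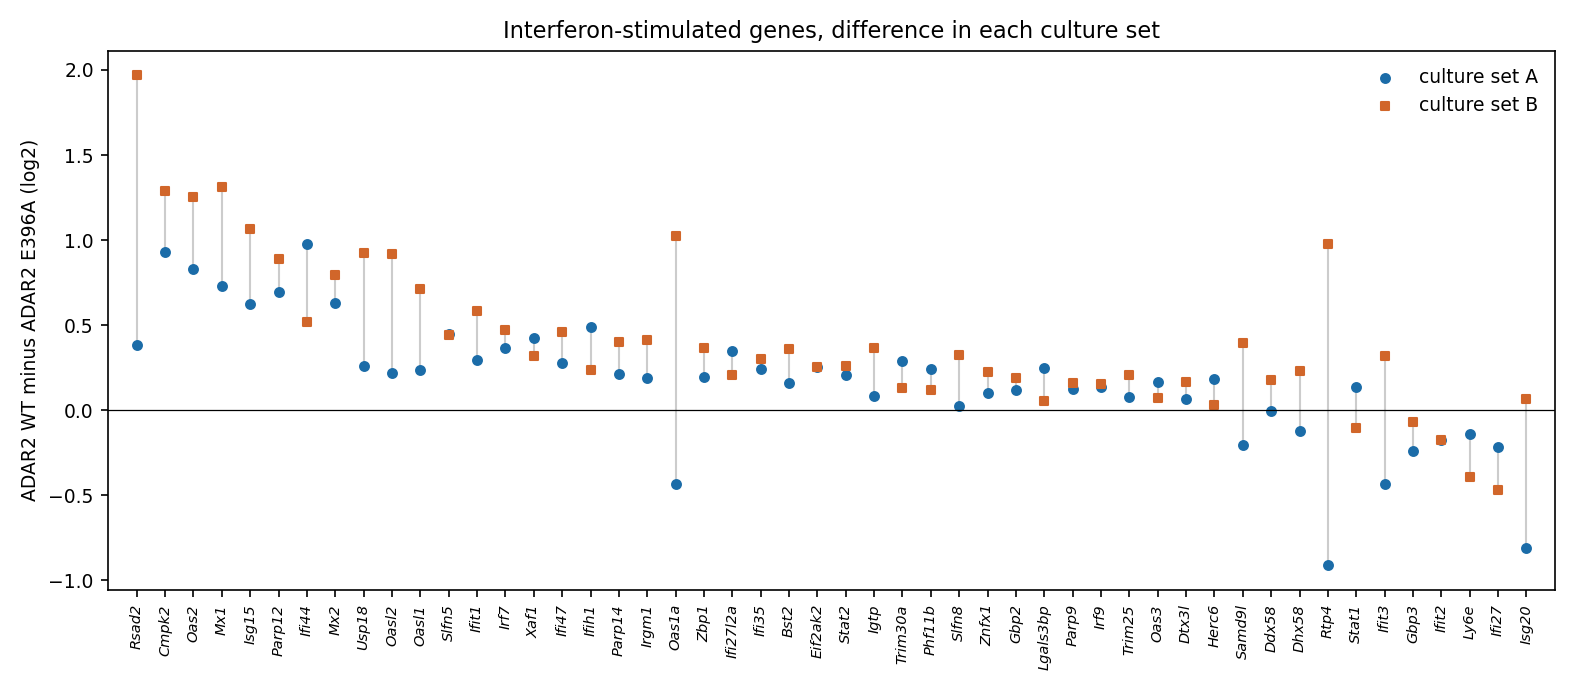
Difference between ADAR2 WT and ADAR2 E396A (log2) in culture set A (circles) and set B (squares) for the 50 interferon-stimulated genes tested, ordered by the mean of both sets. For 38 genes both points lie above 0 and for 4 both lie below.

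Against the empty vector the median of the list was 0.39 with ADAR2 WT and 0.15 with ADAR2 E396A, values that share the empty-vector libraries. Among 12 tested sensors and effectors of double-stranded RNA the median difference between constructs was 0.13 (0.04 in set A, 0.22 in set B). None passed by limma, edgeR or DESeq2, with 3 at an unadjusted p under 0.05 (12.4% of all genes tested). The ADAR2 WT library of set B was the highest for 9 of the 12. Ifih1, the MDA5 sensor gene, was at 862 and 1480.2 with the active and 613 and 1259 with the dead enzyme (difference 0.36, SE 0.09, limma adjusted p = 0.186). Eif2ak2, the PKR kinase gene, was at 2208 and 3320.5 against 1853 and 2781 (difference 0.25, SE 0.09, limma adjusted p = 0.292), and Zbp1, a sensor of Z-form nucleic acid, had a difference of 0.28.

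Promoters of the interferon-stimulated genes, taken from RefSeq (GRCm38.p6) for 37 of the 50 genes, were searched on both strands for GAAANNGAAA, the core of the interferon-stimulated response element. The window ran from 250 bases before to 50 after the start site. Of 45 promoters 21 held it (46.7%), against 3.44% of all 32851 promoters and 3.05% of those of genes tested. It was found in 19 genes, 11 of which had an unadjusted p under 0.05, as had 7 of the 18 genes without it. Cmpk2 and Parp12 were among those 7. The 30-base windows of the first 7 by p of the 11 genes with a match are shown so that the shared core can be read. Each is turned so that the core reads forward, with every core that lies whole within the window in capitals. These are descriptions of letters, not sites shown to be bound.

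Isg15 (chr4:156200877-156200906, minus strand): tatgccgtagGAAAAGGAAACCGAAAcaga

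Ifih1 (chr2:62646206-62646235, minus strand): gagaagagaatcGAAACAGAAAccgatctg

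Irgm1 (chr11:48871431-48871460, minus strand): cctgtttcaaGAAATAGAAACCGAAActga

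Rsad2 (chr12:26456553-26456582, plus strand): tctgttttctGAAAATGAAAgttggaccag

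Slfn5 (chr11:82951937-82951966, plus strand): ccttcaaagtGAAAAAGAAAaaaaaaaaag

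Eif2ak2 (chr17:78882535-78882564, minus strand): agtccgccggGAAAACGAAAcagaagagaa

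Stat2 (chr10:128270266-128270295, minus strand): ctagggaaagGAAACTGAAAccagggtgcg

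In Isg15 the core occurs 3 times in overlapping register, beginning 78 bases before the start site. The promoter window of Irgm1 holds it 2 times, and those of the other 5 genes hold it 1 time each. In Ifih1 and Eif2ak2 the core begins 32 and 18 bases after the start site. Isg15 has the most matches among these 7 genes. The 250 bases before the start site of Isg15, chr4:156200819-156201068 (minus strand), are therefore printed whole, with every match in capitals.

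Isg15 promoter: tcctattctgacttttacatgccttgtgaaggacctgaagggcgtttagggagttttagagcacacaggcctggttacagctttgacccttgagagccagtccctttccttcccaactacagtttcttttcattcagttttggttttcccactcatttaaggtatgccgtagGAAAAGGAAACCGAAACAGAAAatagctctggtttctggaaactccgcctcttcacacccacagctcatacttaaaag

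Among the genes that passed, 0 of 8 promoters had that core, from 7 of the 9 protein-coding genes (all but Cd93 and Bst1). The same promoters were searched for 3 cores of factors of killer and helper T cells. The T-box core AGGTGTGA was in 2 of 8 (25%), those of Nkg7 and Mctp2, against 1.28% of all promoters and 0.903% of those of genes tested. The RUNX core TGTGGTTT and the ETS core ACCGGAAG were in none. They were in 1.78% and 2.3% of all promoters, and in 1.17% and 4.63% of those of genes tested. With 8 promoters, enrichment was not tested. The windows of Nkg7 and Mctp2 are shown side by side with the T-box core in capitals. In Nkg7 the match begins 14 bases before the start site, and in Mctp2 153 bases before it, on the strand opposite to the gene.

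Nkg7 (chr7:43437113-43437142, plus strand): gggggtagggaAGGTGTGAgaagaatcaga

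Mctp2 (chr7:72306730-72306759, plus strand): gtgactcttccAGGTGTGAcacgaaggagt

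Tbx21, which encodes the T-box factor T-bet, was at 745 and 835 with the active and 849 and 710.4 with the dead enzyme (difference 0.02, SE 0.12). Eomes, another T-box factor gene, was at 7.77 and 11.5 against 20.7 and 19.2 (difference -1.0, SE 0.40, limma adjusted p = 0.361). Of 15 tested Th1 regulators and receptors none passed by limma, 7 were lower in both sets and 2 higher, and the median difference was -0.20. Ifngr1, a chain of the interferon gamma receptor, was at 1811 and 1532 against 2601 and 2354 (difference -0.57, SE 0.12, limma adjusted p = 0.154), and DESeq2 called it lower. Ifng, the interferon gamma gene, had a difference of -0.81 (-1.14 in set A, -0.49 in set B).

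The Th17 genes showed no common direction. Of 19 tested none passed by limma or edgeR, 7 were higher and 7 lower in both sets, and the median was 0.10 in set A and -0.28 in set B. Il17a, the gene of the defining cytokine, was at 6602 with ADAR2 WT and 2616 with ADAR2 E396A in set A, but at 17878 and 18145 in set B. Il17f was at 10201 and 5202 in set A and at 20715 and 31376 in set B. The differences of both genes thus had opposite signs in the sets (1.34 and -0.02 for Il17a, 0.97 and -0.60 for Il17f). More even were Maf, a regulator of IL-10 and IL-21 expression, at 3117 and 2537 against 4158 and 3099.6 (difference -0.35, SE 0.07), and Basp1, at 4951 and 4749 against 3523 and 3446 (difference 0.48, SE 0.11), which DESeq2 called. Il21 had a difference of 0.56 and Rora, a lineage regulator gene, -0.36.

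**Figure D5:**
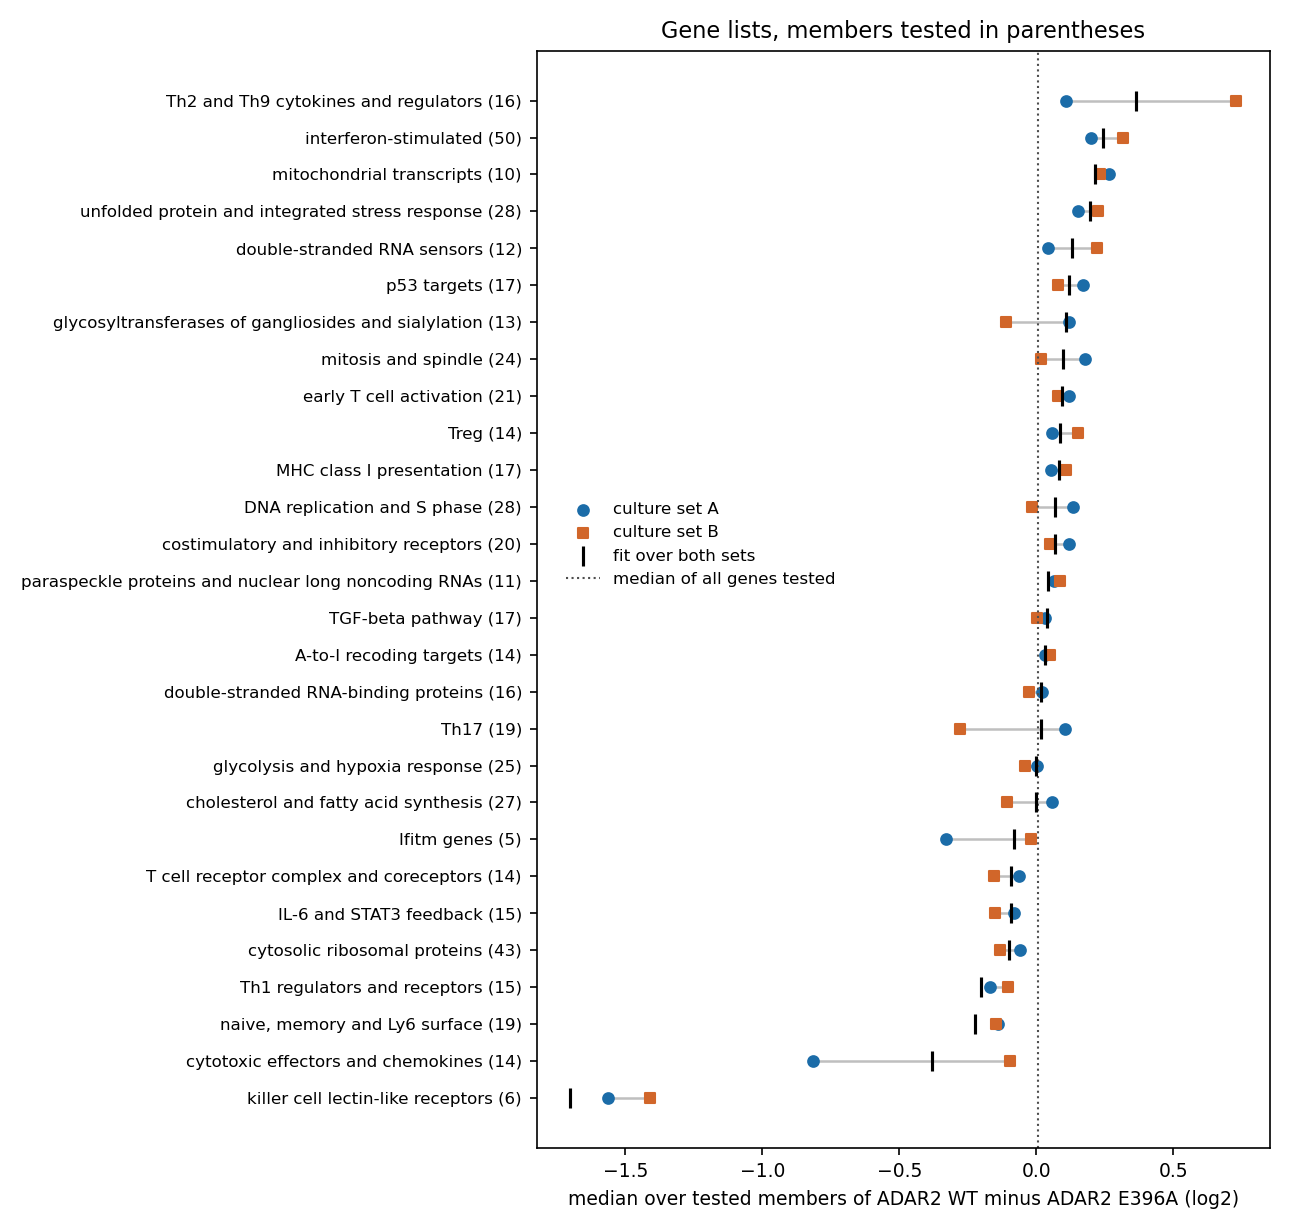
Median difference between ADAR2 WT and ADAR2 E396A (log2) over the tested members of each gene list with at least 5 of them, from the fit over both sets (bars), within culture set A (circles) and within set B (squares). The dotted line is the median over all genes tested, 0.0044, and the killer cell lectin-like receptors stand lowest at -1.70.

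Receptors and signals of T cell activation differed in single genes. Of 20 genes of a list of costimulatory and inhibitory receptors, to which Cd93 had been assigned, Cd93 fell and the others did not pass by limma. Btla, an inhibitory receptor gene, was at 4015 and 4357 with the active and 2916 and 3005 with the dead enzyme (difference 0.50, SE 0.09, limma adjusted p = 0.113), and Cd200, an immunoglobulin family ligand gene, had a difference of 0.54. DESeq2 called these 2 and Cd226 higher. Of 21 early activation genes none passed by limma, 13 were higher in both sets and 4 lower. Il2, the T cell growth factor gene, was at 417 and 785 against 156 and 302 (difference 1.40, SE 0.26, limma adjusted p = 0.111), with 1.41 in set A and 1.38 in set B. Its empty-vector libraries had 167 and 723. From these ADAR2 WT differed by 1.32 in set A and 0.12 in set B, and ADAR2 E396A by -0.10 and -1.26. Tnfrsf9, the 4-1BB receptor gene, was at 14591 and 11948 against 18508 and 15963 (difference -0.38, SE 0.06, limma adjusted p = 0.0787), and DESeq2 and edgeR with TMM factors called it lower. The 14 T cell receptor complex and coreceptor genes had a median of -0.09, 11 of them lower in both sets (29.6% of all genes tested). None passed by limma, edgeR or DESeq2, with 5 at an unadjusted p under 0.05 (12.4% of all genes tested). The ADAR2 WT library of set B was the lowest of the 6 for 10 of these 14 (20.3% of all genes tested), and the empty-vector library of set A the highest for 12 (21.6%).

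Cytokine pathways used in the culture gave few differences. Of 17 TGF-β pathway genes none passed by limma, with a median of 0.04. Pmepa1, a feedback inhibitor of the pathway, was at 1814 and 2273 with the active and 1271 and 1581 with the dead enzyme, 0.51 and 0.52 in sets A and B (mean 0.52, SE 0.07, limma adjusted p = 0.0622), and DESeq2 and edgeR with TMM factors called it higher. Tgfb2 had a difference of 1.35 and Tgfb3 one of -0.80, both ligand genes at 115 normalized counts or fewer in the construct libraries. Of 15 IL-6 and STAT3 feedback genes none passed by limma, and Jak2, a kinase of cytokine receptors, was at 17086 and 14629 against 12408 and 11027 (difference 0.43, SE 0.07, limma adjusted p = 0.0787), which DESeq2 called higher.

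Genes of the unfolded protein and integrated stress responses had positive differences in most members. Of 28 tested none passed by limma or edgeR, 12 had an unadjusted p under 0.05 with ADAR2 WT higher (6.43% of all genes tested) and 0 with it lower (5.96%), and 23 were higher in both sets against 1 lower. The median was 0.20 (0.15 in set A, 0.22 in set B). The ADAR2 E396A library of set B was the lowest of the 6 for 11 members (15.6% of all genes tested), and the empty-vector library of set A for 12 (18.9%). The fit on the 4 construct libraries alone called Hspa5, Creld2, Hsp90b1 and Atf3 higher. Hspa5, the chaperone BiP of the endoplasmic reticulum, was at 24895 and 26320.3 with the active and 19892 and 20226 with the dead enzyme (difference 0.35, SE 0.08, limma adjusted p = 0.172), and DESeq2 called it higher. Creld2, a secreted stress response gene, was at 1145 and 1168 against 864 and 827 (difference 0.45, SE 0.09). Atf3, a stress-induced transcription factor gene, was at 2661 and 3204 against 1877 and 1387 (difference 0.86, SE 0.20), with the empty-vector libraries at 1462 and 2331. For all 3 the ADAR2 WT libraries lay above both ADAR2 E396A libraries, as they did for 18 of the 28 members (19.4% of all genes tested).

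Of 17 p53 target genes 12 were higher in both sets and 1 lower (32.9% and 29.6% of all genes tested). Their median was 0.12, and none passed by limma. DESeq2 called Gadd45b and Plk2 higher, and the fit on the 4 construct libraries alone these and Gadd45a. Gadd45b, a growth arrest gene, was at 999 and 1426 against 601 and 784 (difference 0.80, SE 0.16, limma adjusted p = 0.13), with the empty-vector libraries at 545 and 1206. Of 43 ribosomal protein genes 36 were lower in both sets (29.6% of all genes tested were), with a median of -0.10. The groups overlapped for all 43. Over all genes tested they did not overlap for 19.4% with ADAR2 WT higher and for 17.3% with it lower. None of the 43 passed by limma, edgeR or DESeq2. An unadjusted p under 0.05 was reached by 6, all with ADAR2 WT lower (5.96% of all genes tested). The ADAR2 WT library of set B was the lowest of the 6 for 32 of the 43 (20.3% of all genes tested). The median of the DNA replication list was 0.07 (0.13 in set A, -0.02 in set B), and that of the mitosis list 0.10 (0.18 and 0.02). The ADAR2 WT library of set A was the highest of the 6 for 20 of the 24 mitosis genes (16.6% of all genes tested). The empty-vector library of set A was the lowest for 21 of them (18.9%). The glycolysis and cholesterol synthesis lists had medians of -0.0011 and -0.0021.

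Of 10 tested mitochondrial transcripts 8 were higher in both sets and 1 was lower, with a median of 0.22, and none passed by limma or edgeR. An unadjusted p under 0.05 was reached by 7 with ADAR2 WT higher (6.43% of all genes tested) and by 0 with it lower (5.96%). Against the empty vector the median of the list was 0.545 with ADAR2 WT and 0.27 with ADAR2 E396A. The small ribosomal RNA mt-Rnr1 was at 6435 and 4924 normalized counts with the active and 4963 and 3752 with the dead enzyme (difference 0.38, SE 0.06, limma adjusted p = 0.088). Its empty-vector libraries had 3359 and 2723, from which ADAR2 WT differed by 0.90 and ADAR2 E396A by 0.51. mt-Nd2, a complex I subunit gene, was at 1457 and 1479 against 1028 and 913 (difference 0.60, SE 0.11, limma adjusted p = 0.102). DESeq2 called both higher. The ribosomal RNA of set A was above that of set B under both constructs, and the libraries were depleted of ribosomal RNA before sequencing.

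Genes close to RNA editing itself did not pass. Of 24 known recoding targets of A-to-I editing 14 were tested, with a median difference of 0.03. None passed by limma, edgeR or DESeq2, and 3 had an unadjusted p under 0.05 (12.4% of all genes tested had). Cog3, a Golgi tethering complex gene, was at 1250.5 and 1303 with the active and 1506 and 1620.4 with the dead enzyme (difference -0.29, SE 0.07, limma adjusted p = 0.188). Flna, the filamin A gene, was at 14001 and 17418 against 12650 and 15854 (difference 0.14, SE 0.06). Azin1, an antizyme inhibitor gene, had a difference of 0.18. Of 16 genes of double-stranded RNA-binding proteins none passed by limma, edgeR or DESeq2. Their median was 0.02, and 4 had an unadjusted p under 0.05 (12.4% of all genes tested). Prkra, the PKR activator PACT, was at 161 and 109.6 against 224 and 166 (difference -0.53, SE 0.14, limma adjusted p = 0.202).

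The calls rest on the pairing of libraries by culture set: without it 0 genes passed by limma (732 at an unadjusted p under 0.05) or edgeR (741), and with it edgeR called 10 genes and DESeq2 109. Without the ADAR2 WT library of set A limma called 0 genes (686 at an unadjusted p under 0.05), and without that of set B it called 2, neither among the 10 (960 at an unadjusted p under 0.05). Without any 1 of the other 4 libraries it called 217 to 844 genes, among them all 10. With TMM scaling 39 genes passed, 12 higher and 27 lower.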

How the data were processed

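RNA-seq was done on 6 libraries of ribosome-depleted RNA. Per the submitters' processing notes, the tools were STAR 2.6.1a, featureCounts and DESeq2 1.18.1, and the build was mm10. No source used here gives their parameters or strand setting. What the authors deposited is 1 table per construct, 2 in all, of 55450 genes. The normalized counts of its 4 libraries are a signal at or above 0. Per the file headers the tables also hold the authors' DESeq2 results (a mean, a log2 fold change with its error, a Wald score, a p-value and an adjusted p-value), which were not used for the values here.

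Reads were recovered by dividing each library column by its smallest value above 0. Within 0.001 of a read 100% of values were whole numbers, and every gene ID matched GENCODE vM21. Columns carry no group label: a library present in both tables is the empty vector, and any other carries the construct in its table's name, so the distinction of WT from E396A rests on those names. The design text compares cells of the same donor. Refitting DESeq2 under each pairing returned the authors' deposited Wald scores within 0.0001 for the pairing used here, and missed them by up to 13.8 for the crossed one. Deviations of same-set construct libraries from their group means had a correlation of 0.637. Which labelled replicate is set A is not known.

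The recovered counts were scaled by median-of-ratios factors over 6 libraries, filtered with edgeR's filterByExpr and tested with limma 3.58.1 (R 4.3.3, intensity trend on) on log2 values (pseudocount 1) with terms for group and set and Benjamini-Hochberg adjustment over all genes. Differences on this scale understate those of low genes. edgeR 4.0.16 and DESeq2 1.42.0 were alternatives, and the fit was tested on simulated data. Similar transcripts were found with blastn 2.17.0+.

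Members and gene lists were chosen with earlier results of these data known. Counts and medians were computed for 36 lists, not all of which are given here. Genes named by rule were Adarb1, Adar, every gene that passed, the next by unadjusted p, up to 15 per direction with those that passed (mean of at least 50, log2 difference of at least 0.58, same sign in both sets, no predicted genes, pseudogenes or antigen receptor genes) and up to 4 members of each list. Neighbours, near copies and Gzma, Gzmb, Gata3, Il13, Rsad2, Hsp90b1, Il17a, Il17f, Cd8a, Cd8b1, Tbx21 and Eomes were named after their values were seen.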

Additional observations from a re-analysis of the deposited data

How the results depend on the processing

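Numbers of genes passing moved with the settings, while all 10 genes kept their direction in each of the 19 refits. Without the replicate block 0 genes passed by limma (732 at an unadjusted p under 0.05) and 0 by edgeR (741), against 10 with it. limma without the intensity trend called 0 genes (1359 at an unadjusted p under 0.05). The 4 construct libraries alone gave 194 genes (97 higher, 97 lower), edgeR with TMM factors 42 (15 and 27), DESeq2 109 (51 and 58), TMM scaling 39 (12 and 27), no filter on low counts 102 (44 and 58), and an adjusted p under 0.1 gave 56 (23 and 33). With a filter of 50 on mean normalized counts, 10770 genes were tested and 3 passed (0 higher, 3 lower), which were Cd93, Bst1 and B4galnt4. Each other setting with scaling, pseudocount or edgeR with median-of-ratios factors gave 10 genes. Leaving out each library in turn gave 0 to 844 genes, of which 0 to 335 were higher and 0 to 509 lower. The 10 calls were all lost without the ADAR2 WT library of set A (0 genes, 686 at an unadjusted p under 0.05) or of set B (2 genes). They were all kept without empty vector of set A or B (467 and 425 genes) or ADAR2 E396A of set A or B (844 and 217). A group left with 1 library was assumed to vary like the others. Except for those tied to these settings, the cause of such moves was not tested. With 2 donors and 2 residual degrees of freedom, a difference that did not pass may still be present, and genes under the count filter were not tested. Other scalings moved the median gene by -0.0094 and -0.016.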
